A study of Mus musculus with 8 samples.

Results

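The genes described here are the Wnt, bone morphogenetic protein (BMP), growth and differentiation factor (GDF) and fibroblast growth factor (FGF) genes of adult mouse midbrain nuclei. They were taken by name, as every gene of the deposited table whose symbol is Wnt, Bmp, Gdf or Fgf followed by a number and at most 1 letter, which gave 55 of 23481 genes. Of the 63 annotated mouse genes that match this pattern, 8 had no entry in the table (Bmp10, Fgf4, Fgf6, Fgf21, Gdf1, Gdf2, Gdf3 and Wnt8a). A name is not a function: Bmp1 is a protease, Bmp2k a kinase, and Fgf11 to Fgf14 are intracellular partners of sodium channels, so 49 of the 55 are ligands. They comprise 18 Wnt, 9 BMP, 7 GDF and 15 FGF genes.

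Wnt proteins bind Frizzled receptors with Lrp5 or Lrp6, which stabilises beta-catenin, or act without beta-catenin through receptors such as Ror1, Ror2 and Ryk. BMP and GDF ligands bind paired serine/threonine kinase receptors that phosphorylate Smad proteins, and FGF ligands bind receptor tyrosine kinases together with heparan sulphate or Klotho cofactors. All of these families pattern the embryonic midbrain and spinal cord, and many of their genes are known in embryonic stem cells as targets of Polycomb repressive complex 2 (PRC2), the enzyme complex that places methyl groups on histone H3 (lysine 27) to keep genes silent.

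The study profiled single nuclei of adult mouse midbrain, sorted by FACS, by 10x Single Cell 3' v3 sequencing, to compare dopamine neurons with and without working PRC2. Both groups were 8 months old and of the strain labelled DatCreEed, which names Cre under the dopamine transporter (Dat) gene and Eed, a core PRC2 subunit. One group has the genotype wt and the other the genotype PRC2 mutant. Each is 1 library pooled from 3 mice (2 female and 1 male), and its 4 samples are 4 flow cell lanes of that library. The labels do not say whether the wt mice carry Cre or which stretch of Eed is deleted. With 1 library per genotype there is no replicate, no test of a genotype difference can be made, and genotype cannot be told apart from batch or from the mice pooled. Every interval below is a 95% interval for counting error only.

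Nuclei with at least 5 tags (unique molecular identifiers, UMIs) of Th, Slc6a3, Slc18a2 and Ddc per 10000 UMIs were taken as dopamine nuclei and the rest as other nuclei. This gave 1320 of 1772 wt and 2875 of 3968 mutant nuclei as dopamine nuclei, with 39383984 and 68742978 UMIs in all and medians of 24257.5 and 19023 UMIs per nucleus. The 452 wt and 1093 mutant other nuclei held 7156906 and 19458348 UMIs, with medians of 12471.5 and 14650. The split genes were themselves lower in the mutant library, with a median of 13.7 per 10000 UMIs in its dopamine nuclei against 24.3 in wt, so the same threshold does not pick the same nuclei in both libraries. A list of 12 further dopamine neuron markers summed to 1269.8 CPM (counts per 1000000 UMIs of the set) in wt and 975.8 in mutant dopamine nuclei, against 298.7 and 311.5 in other nuclei, and none of the 12 was at 0. Summed Hox genes, silent in the adult midbrain, stood at 0.0762 CPM (3 UMIs) in wt and 526.1 CPM in mutant dopamine nuclei. They also reached 93.5 CPM in mutant other nuclei, against 1.12 CPM in wt, so the other nuclei of the mutant library are not free of Hox tags. Mutant other nuclei with oligodendrocyte markers had 20.7 CPM on 10 UMIs, and those with astrocyte markers 23.7 CPM on 4 UMIs. The part of free RNA in these tags was not tested. Tags of Eed stood at 21.4 CPM in wt and 41.3 CPM in mutant dopamine nuclei, which does not check the genotype, since 3' tags may lie outside the deleted stretch. Only 4 of the cell barcodes were present in both libraries.

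Few of the ligand genes differed in level as Hox genes did, and Wnt5a stood apart from the rest. A gene was called higher or lower where the levels in the 2 libraries differed by at least 2-fold after 1 CPM was added to both, among genes with at least 10 UMIs. Of the 55 genes, 45 had that many in dopamine nuclei, 1 was higher in the mutant library (Wnt5a), none was lower and 44 lay within 2-fold. Over all 20074 genes measured in these nuclei, 1.73% were higher and 0.717% lower by the same rule, so the share of 1 in 45, or 2.22%, is near the background and is no result about these genes as a list. The 10 genes with fewer UMIs were Bmp15, Fgf3, Fgf8, Fgf16, Gdf7, Gdf10, Wnt1, Wnt6, Wnt9b and Wnt10a, and 3 of them had 0 UMIs in wt. A lower call needs at least 1 CPM in wt, which 26 of the 45 had. The median log2 ratio (mutant over wt, 1 CPM added) was 0.11 over the 45 genes and 0.02 over all genes. For the 39 measured ligands alone the median was 0.05, with 21 above and 18 below 0. Of 30 measured Hox genes, 25 passed 2-fold as higher, with a median log2 ratio of 2.81.

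At 1.5-fold, 8 of the 45 genes passed in either direction, against 6.57% of all genes. Of these, 6 were higher (Wnt5a, Bmp1, Fgf18, Fgf5, Bmp7 and Wnt11), against 3.57% of all genes, and 2 were lower (Fgf20 and Wnt7a), against 602 of the 20074 genes. PRC2 is known to act at CpG-dense promoters. RefSeq (build GRCm38.p6) lists the promoters of 39 of the 55 genes, among them 4 of these 8. Wnt5a, Bmp1, Bmp7 and Fgf20 are not among those listed. The 250 bases before the start site are shown for these 4 genes, and for Wnt9a and Bmp5, which lay within 1.5-fold with 1 CPM added and whose promoters are dense and poor in CpG, respectively. Without the added 1 CPM their ratios were 1.60-fold (1.02 to 2.55) and 1.54-fold (1.07 to 2.25). Each runs 5′ to 3′ on the gene's strand, with every CG dinucleotide in capitals.
Fgf18 (chr11:33147401-33147650, minus strand): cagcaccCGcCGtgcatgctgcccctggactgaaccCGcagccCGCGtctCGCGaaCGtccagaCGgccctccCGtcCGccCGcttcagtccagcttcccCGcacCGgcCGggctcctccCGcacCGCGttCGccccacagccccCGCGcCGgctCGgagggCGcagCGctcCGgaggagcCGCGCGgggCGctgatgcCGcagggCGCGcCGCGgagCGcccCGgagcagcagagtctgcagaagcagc
Wnt11 (chr7:98834862-98835111, plus strand): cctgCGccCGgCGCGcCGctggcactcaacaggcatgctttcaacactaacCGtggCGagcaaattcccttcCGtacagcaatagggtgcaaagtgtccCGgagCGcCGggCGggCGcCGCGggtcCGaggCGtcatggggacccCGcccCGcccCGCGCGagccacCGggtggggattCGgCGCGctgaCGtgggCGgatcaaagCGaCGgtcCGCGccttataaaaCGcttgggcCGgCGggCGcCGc
Fgf5 (chr5:98253934-98254183, plus strand): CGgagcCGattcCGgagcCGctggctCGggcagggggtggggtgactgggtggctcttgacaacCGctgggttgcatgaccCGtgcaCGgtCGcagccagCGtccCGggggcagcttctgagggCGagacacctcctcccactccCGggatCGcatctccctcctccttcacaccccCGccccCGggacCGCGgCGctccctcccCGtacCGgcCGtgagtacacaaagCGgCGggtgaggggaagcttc
Wnt7a (chr6:91411354-91411603, minus strand): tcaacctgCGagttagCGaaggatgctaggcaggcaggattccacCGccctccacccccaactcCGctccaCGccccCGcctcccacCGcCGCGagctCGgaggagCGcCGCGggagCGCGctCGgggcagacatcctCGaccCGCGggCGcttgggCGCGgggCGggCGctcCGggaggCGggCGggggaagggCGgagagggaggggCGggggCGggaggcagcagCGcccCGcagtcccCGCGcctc
Wnt9a (chr11:59306680-59306929, plus strand): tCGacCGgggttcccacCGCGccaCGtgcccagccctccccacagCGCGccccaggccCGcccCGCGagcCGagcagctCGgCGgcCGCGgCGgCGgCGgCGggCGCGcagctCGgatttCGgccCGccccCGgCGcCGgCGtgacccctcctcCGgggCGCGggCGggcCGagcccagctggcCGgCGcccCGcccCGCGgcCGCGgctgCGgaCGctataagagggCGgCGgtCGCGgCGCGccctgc
Bmp5 (chr9:75775115-75775364, plus strand): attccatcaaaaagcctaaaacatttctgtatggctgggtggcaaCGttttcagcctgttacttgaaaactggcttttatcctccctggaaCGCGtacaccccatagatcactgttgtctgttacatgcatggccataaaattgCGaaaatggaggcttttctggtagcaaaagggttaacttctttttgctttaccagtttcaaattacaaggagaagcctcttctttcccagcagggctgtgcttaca

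The printed promoters of the higher and lower genes were all dense in CG, and so was that of Wnt9a. Counted over the window from 250 bases before to 50 after the start, the promoters of the 3 higher genes held 47 (Fgf18), 45 (Wnt11) and 29 (Fgf5) CG dinucleotides, and that of the lower gene Wnt7a held 42. The 28 listed genes within 1.5-fold ranged from 1 to 58, with a median of 18, and Wnt9a had the 58. Wnt4 (51), Wnt5b (47), Wnt3a (45) and Bmp2k (45) were also among these 28. Across 15921 promoters of genes in the table the median was 15. Of these promoters 4.12% held at least as many as Wnt7a and 18.4% at least as many as Fgf5. The 39 listed genes had a median of 24. This is a description of the sequence, and no histone mark was measured in these libraries.

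**Figure D1:**
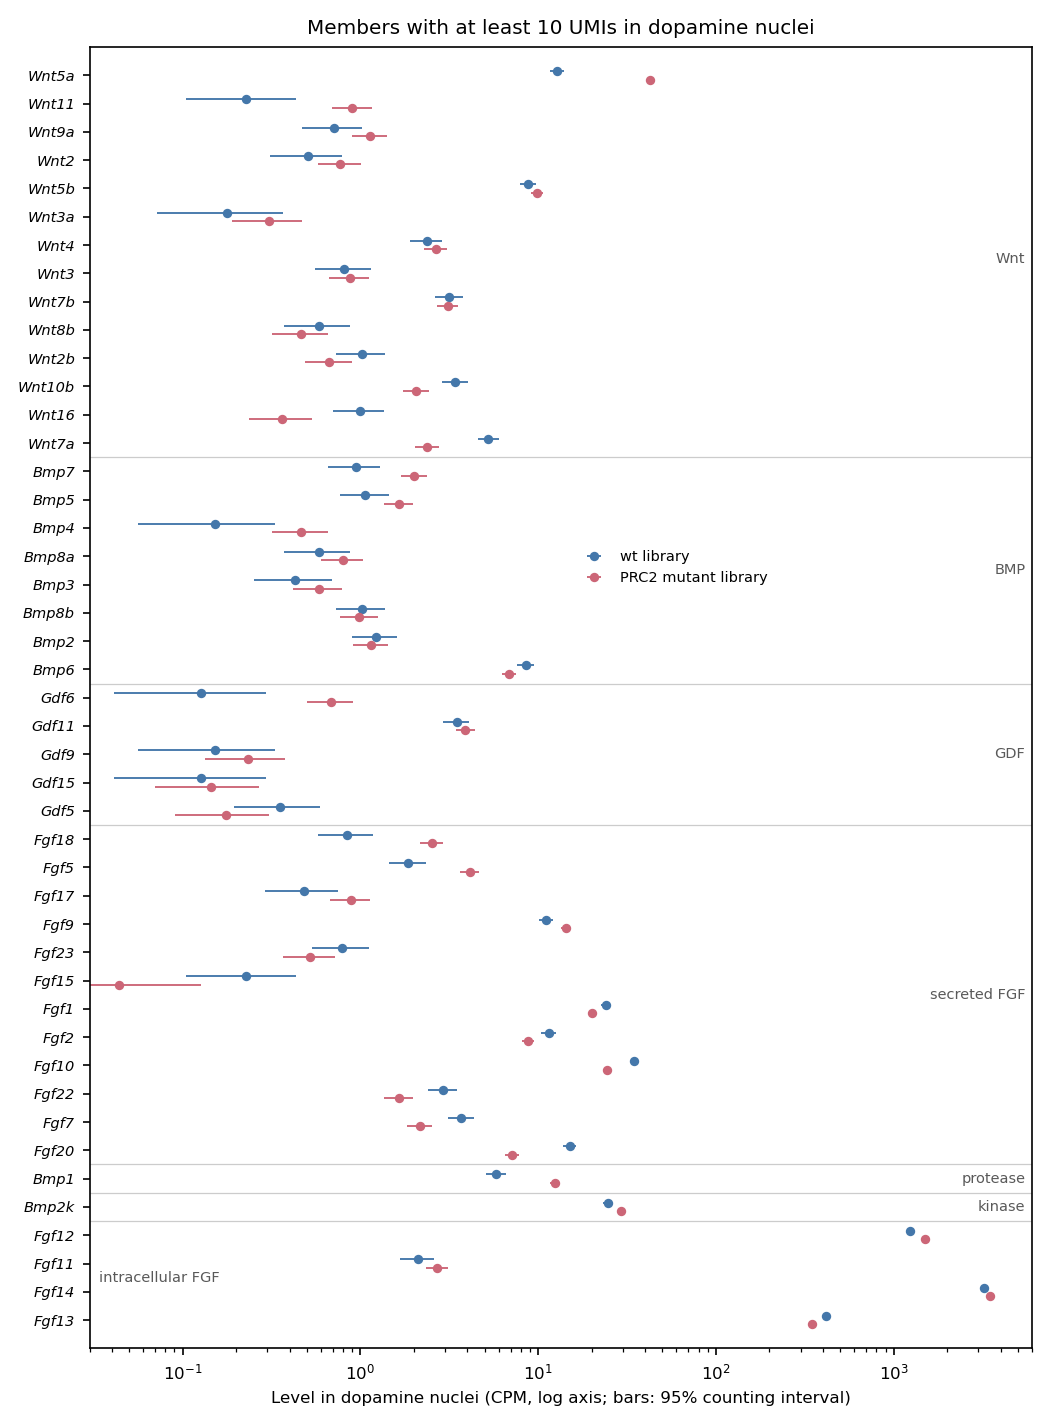
Level of each of the 45 genes with at least 10 UMIs, in CPM on a log axis, in dopamine nuclei of the wt (blue) and PRC2 mutant (red) library; bars are 95% counting intervals, and grey lines part the families. Wnt5a lies at 12.8 CPM in wt and 42.9 CPM in mutant nuclei. No CPM is added here, and some other pairs of points also lie apart, such as Gdf6 (0.127 and 0.684 CPM) and Fgf20 (15.06 and 7.11 CPM). Others, such as Wnt5b (8.79 and 9.91 CPM), lie close together.

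Wnt5a, which signals mainly without beta-catenin and takes part in the growth and migration of developing dopamine neurons, had 503 UMIs in wt and 2947 in mutant dopamine nuclei. These are levels of 12.8 CPM (11.7 to 13.9) and 42.9 CPM (41.3 to 44.5), a ratio of 3.36-fold (3.05 to 3.70). It is 1 of 17 of the 55 genes that overlap another gene of the table, in each case on the opposite strand. The gene lies at chr14:28504750-28527448 on the plus strand (mm10). An opposite-strand gene that overlaps it, Gm2670, had 3 and 14 UMIs there. In other nuclei Wnt5a stood at 10.5 CPM in wt and 13.7 CPM in mutant, a ratio of 1.31-fold (1.01 to 1.72). Within the wt library its level was 1.22-fold (0.955 to 1.58) that of other nuclei, and within the mutant library 3.12-fold (2.76 to 3.56).

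The Wnt5a difference was present at each dopamine gene content. Among nuclei with 5 to 15 split-gene UMIs per 10000 (282 wt and 1675 mutant nuclei) it stood at 16.5 CPM in wt and 43.5 CPM in mutant. Among nuclei with 15 to 30 (659 and 1138 nuclei) the levels were 12.6 and 41.8 CPM, and at 30 or more (379 and 62 nuclei) 11.1 and 38.05 CPM. The ratios were 2.64-fold (2.17 to 3.25), 3.32-fold (2.90 to 3.82) and 3.42-fold (2.15 to 5.25), with no overlap of the levels' intervals in any of the 3 ranges. Below the threshold the levels drew together, at 16.5 and 21.7 CPM among nuclei with 2 to 5 and 6.36 and 9.47 CPM under 2. The difference was also present in both marker classes of dopamine nuclei. Nuclei richer in nigral markers (Aldh1a1, Sox6, Ndnf, Anxa1 and Igf1) than in tegmental ones (Otx2, Calb1, Slc17a6, Neurod6, Lpl, Cck, Grp and Vip) had 12.4 and 45.0 CPM. Those richer in tegmental markers had 14.5 and 35.3 CPM. Listed markers differed themselves, with Aldh1a1 at 187.4 and 96.1 CPM and Slc17a6 at 24.55 and 31.7 CPM in wt and mutant dopamine nuclei. These classes therefore need not hold the same neurons in both libraries.

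More nuclei carried Wnt5a tags in the mutant library. With every nucleus thinned to 2000 UMIs, 24 of 1285 wt dopamine nuclei (1.87%, 1.20 to 2.77) and 227 of 2848 mutant ones (7.97%, 7.002 to 9.03) had a tag, leaving out 35 and 27 shallower nuclei. Without thinning the shares were 25.2% and 46.0%. As a gauge of free RNA, nuclei below the threshold that carried oligodendrocyte markers were used, whose median depths were 4314 and 3768 UMIs. After thinning, 0 of 48 wt and 0 of 56 mutant ones had a Wnt5a tag. Taken as 3 counts over the number of nuclei, this allows shares of up to about 6.25% and 5.36%. The upper ends of exact intervals are somewhat higher. Without thinning, 3 of 55 wt (5.45%) and 1 of 69 mutant ones (1.45%) had one. The wt share therefore cannot be set above that background at this depth. Nuclei with 3 or more Wnt5a UMIs made up 2.80% of wt and 13.6% of mutant dopamine nuclei, and the highest had 6 and 14.

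Mutant dopamine nuclei rich in Hox tags had a higher level of Wnt5a than those with few or none. It stood at 48.8 CPM in the 1763 nuclei with at least 2 Hox UMIs per 10000, at 27.3 CPM in the 528 nuclei with fewer, and at 28.2 CPM in the 584 with none. The last were shallower, with a median of 11136 UMIs against 23276 in the first, and the part of depth in this order was not tested. All 3 levels were above the 12.8 CPM of wt dopamine nuclei.

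With 1 CPM added, the other Wnt genes lay within 2-fold, in both directions. Wnt7a, known for its role in synapse and vessel formation, stood at 5.26 CPM (207 UMIs) in wt and 2.37 CPM (163 UMIs) in mutant dopamine nuclei, 2.22-fold lower (1.80 to 2.74), short of a call once 1 CPM was added. It was lower by a similar ratio at 5 to 15 split UMIs per 10000 (4.76 and 2.16 CPM) and at 15 to 30 (6.29 and 2.78 CPM). In mutant nuclei without a Hox tag it stood at 6.13 CPM, near the wt level, and in those with at least 2 per 10000 at 1.46 CPM. In nuclei richer in nigral markers it stood at 5.32 CPM in wt and 1.82 CPM in mutant, and in those richer in tegmental markers at 5.50 and 4.19 CPM. Astrocytes also express it: nuclei below the threshold with astrocyte markers had 29.7 CPM in wt on 8 UMIs and 41.5 CPM in mutant on 7 UMIs. Summed astrocyte markers in dopamine nuclei were 26.6 CPM in wt and 17.5 CPM in mutant. Leaving out nuclei with at least 5 glial or vascular marker UMIs per 10000 gave Wnt7a a log2 ratio of -1.115 without added CPM. Over all dopamine nuclei it was -1.148. The part of astrocyte RNA in the nuclei kept was not tested.

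Wnt11, like Wnt5a a ligand that acts largely without beta-catenin, had 9 UMIs in wt and 62 in mutant dopamine nuclei (0.228 and 0.902 CPM), 3.95-fold higher (1.95 to 9.03). With a mean over nuclei its log2 ratio without added CPM was 1.007, against 1.981 from the summed UMIs. Wnt16 was lower, with 39 and 25 UMIs (0.990 and 0.364 CPM), a ratio of 2.72-fold (1.61 to 4.69), and Wnt10b stood at 3.43 CPM in wt and 2.05 CPM in mutant. Wnt5b, the paralogue of Wnt5a, did not share its difference, at 8.79 CPM in wt and 9.91 CPM in mutant (1.13-fold, 0.989 to 1.29). Wnt4 (2.36 and 2.65 CPM) and Wnt7b (3.17 and 3.11 CPM) also lay close together in the 2 libraries. The further Wnt genes with at least 10 UMIs (Wnt2, Wnt2b, Wnt3, Wnt3a, Wnt8b and Wnt9a) had log2 ratios between -0.27 (Wnt2b) and 0.32 (Wnt9a). Wnt1, the classical midbrain Wnt of the embryo, was near silence with 3 wt and 2 mutant UMIs, and Wnt6, Wnt9b and Wnt10a had at most 5 UMIs per library. Summed over the 18 Wnt genes the level was 41.1 CPM in wt and 68.6 CPM in mutant dopamine nuclei, 1.67-fold higher (1.58 to 1.77), and Wnt5a alone makes up 12.8 and 42.9 CPM of these sums.

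BMP and GDF tags were sparse. The 9 BMP genes summed to 13.97 CPM in wt and 14.55 CPM in mutant dopamine nuclei (1.04-fold, 0.938 to 1.16), and the 7 GDF genes to 4.27 and 5.30 CPM (1.24-fold, 1.03 to 1.499). Bmp6, an iron-regulating and neurotrophic BMP, was the most tagged of them, at 8.51 CPM in wt and 6.85 CPM in mutant. Its ratio moved with the nuclei compared: at 5 to 15 split UMIs per 10000 it stood at 16.5 and 8.19 CPM, 2.01-fold lower, and among tegmental-marker nuclei at 8.13 and 9.09 CPM.

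Bmp7, of the same subgroup as Bmp6, stood at 0.940 CPM (37 UMIs) in wt and 2.01 CPM (138 UMIs) in mutant dopamine nuclei, 2.14-fold higher (1.48 to 3.16). Among nuclei with 15 to 30 split UMIs per 10000 it stood at 1.44 CPM in wt and 1.41 CPM in mutant, and at 5 to 15 at 0.951 and 2.34 CPM (6 and 103 UMIs). Gdf6, a BMP-like factor of joint and retina development, had 5 UMIs in wt and 47 in mutant dopamine nuclei (5.39-fold, 2.15 to 17.4), both under 1 CPM. Bmp4, the dorsal neural tube BMP, had 6 and 32 UMIs (3.06-fold, 1.26 to 8.94). Gdf11, at 3.48 CPM in wt and 3.90 CPM in mutant, was the one GDF gene above 1 CPM and differed by 1.12-fold (0.909 to 1.39). Gdf10 had 0 UMIs in wt and 6 in mutant. The other BMP and GDF genes with at least 10 UMIs (Bmp2, Bmp3, Bmp5, Bmp8a, Bmp8b, Gdf5, Gdf9 and Gdf15) had log2 ratios from -0.21 (Gdf5) to 0.36 (Bmp5).

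The FGF ligands as a sum were lower in the mutant library, at 107.2 CPM in wt and 86.6 CPM in mutant dopamine nuclei, 1.24-fold (1.19 to 1.29). Fgf20, a ligand known to be enriched in the substantia nigra and to support dopamine neurons in culture, had more tags per UMI in dopamine than in other nuclei. In the wt library it stood at 15.1 CPM there against 3.07 CPM in other nuclei, 4.90-fold higher (3.21 to 7.88), and in the mutant library the ratio was 3.46-fold (2.50 to 4.90). In mutant dopamine nuclei it stood at 7.11 CPM, 2.12-fold lower than in wt (1.88 to 2.39, 593 and 489 UMIs).

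The Fgf20 difference depended on the dopamine gene content of the nuclei, which was lower in the mutant library. At 5 to 15 split UMIs per 10000 Fgf20 stood at 4.92 CPM in wt and 6.19 CPM in mutant, with overlapping intervals (3.34 to 6.98 and 5.48 to 6.97). At 15 to 30 it was 14.9 CPM in wt and 8.71 CPM in mutant (1.71-fold lower, 1.43 to 2.04), and at 30 or more 20.95 and 10.25 CPM, the last on 7 UMIs. Fgf20 thus rose with the split genes in both libraries, more steeply in wt. Of the 3 ranges, the lowest held the most mutant dopamine nuclei and the middle one the most wt nuclei, and the part of this in the pooled ratio was not tested. It was higher in nigral-marker than in tegmental-marker nuclei in both libraries (17.6 and 6.504 CPM in wt, 7.84 and 4.40 CPM in mutant). Micu3, which overlaps it on the opposite strand, stood at 239.5 CPM in wt and 215.2 CPM in mutant.

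Fgf10, a ligand of the IIIb form of Fgfr2 known from lung and limb budding, was the most tagged FGF ligand in wt dopamine nuclei. It stood at 34.6 CPM there and at 24.3 CPM in mutant dopamine nuclei, 1.42-fold lower (1.32 to 1.53). It marked tegmental-type nuclei, with 90.8 CPM in wt and 56.3 CPM in mutant, against 18.6 and 14.6 CPM in nigral-type ones. At 5 to 15 split UMIs per 10000 it stood at 52.3 CPM in wt and 25.9 CPM in mutant, and at 15 to 30 at 40.1 and 21.1 CPM. At 30 or more the order turned, with 14.7 CPM in wt and 38.05 CPM in the 62 mutant nuclei (26 UMIs). Gm16263, transcribed from the opposite strand across Fgf10, went the same way, at 15.8 CPM in wt and 8.47 CPM in mutant (1.86-fold lower). The sources used here do not state whether counting used strand. Whether reads of this and the other overlapping pairs were kept apart is thus not known here.

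Fgf18, of the Fgf8 subfamily, had 33 UMIs in wt and 173 in mutant dopamine nuclei, or 0.838 and 2.52 CPM, a ratio of 3.003-fold (2.06 to 4.50). It differed likewise in other nuclei, at 1.82 CPM in wt and 5.14 CPM in mutant (2.83-fold, 1.58 to 5.50). The ratio was 2.26-fold at 5 to 15 split UMIs per 10000, 3.88-fold at 15 to 30 and 1.96-fold in nuclei under 2. Fgf5, known as a brake on hair growth, stood at 1.85 CPM in wt and 4.12 CPM in mutant dopamine nuclei (2.22-fold, 1.71 to 2.91) and at 0.838 and 2.21 CPM in other nuclei (2.64-fold, 1.12 to 7.58). Both genes thus had more tags in mutant nuclei on either side of the threshold. Fgf8 itself, the isthmic organiser signal of the embryo, had 2 wt and 4 mutant UMIs.

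The remaining FGF ligands above 5 CPM differed by less. Fgf1, a ligand without a signal peptide, stood at 24.05 CPM in wt and 20.07 CPM in mutant dopamine nuclei, and Fgf2, likewise, at 11.5 and 8.79 CPM. Fgf1 lies within Arhgap26, on the opposite strand, whose level was 530.1 CPM in wt and 541.0 CPM in mutant. Fgf9, a neuron-derived factor acting on glia, was higher, at 11.1 CPM in wt and 14.3 CPM in mutant (1.29-fold, 1.15 to 1.45). Lower in the mutant library were Fgf22, a presynaptic organiser (2.92 and 1.64 CPM, 1.78-fold), and Fgf7, its subfamily relative (3.71 and 2.15 CPM, 1.72-fold). Fgf15, Fgf17 and Fgf23 had under 1 CPM in both libraries, with log2 ratios of -0.24, 0.35 and -0.23.

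The genes that share the names but are not ligands made up most of the tags. Fgf12, Fgf13 and Fgf14 stood at 1240.5, 416.5 and 3235.8 CPM in wt dopamine nuclei and at 1497.2, 347.6 and 3483.7 CPM in mutant ones. Their ratios of 1.21, 0.835 and 1.08 have narrow intervals because of the many tags, and Fgf13 alone of the 3 was lower. Bmp1, which cleaves procollagen and the BMP antagonist chordin, stood at 5.79 CPM in wt and 12.4 CPM in mutant dopamine nuclei (2.15-fold, 1.85 to 2.50), just short of a call. It was close in the 2 libraries at 5 to 15 split UMIs per 10000, at 11.9 CPM in wt and 12.5 CPM in mutant, and 2.13-fold higher at 15 to 30 (5.63 and 12.02 CPM). In other nuclei it stood at 14.95 and 15.4 CPM. In wt it was lower the more split UMIs a nucleus had, and in the mutant it was not. Bmp2k, a kinase gene, differed little, with 24.8 CPM in wt and 29.3 CPM in mutant dopamine nuclei.

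**Figure D2:**
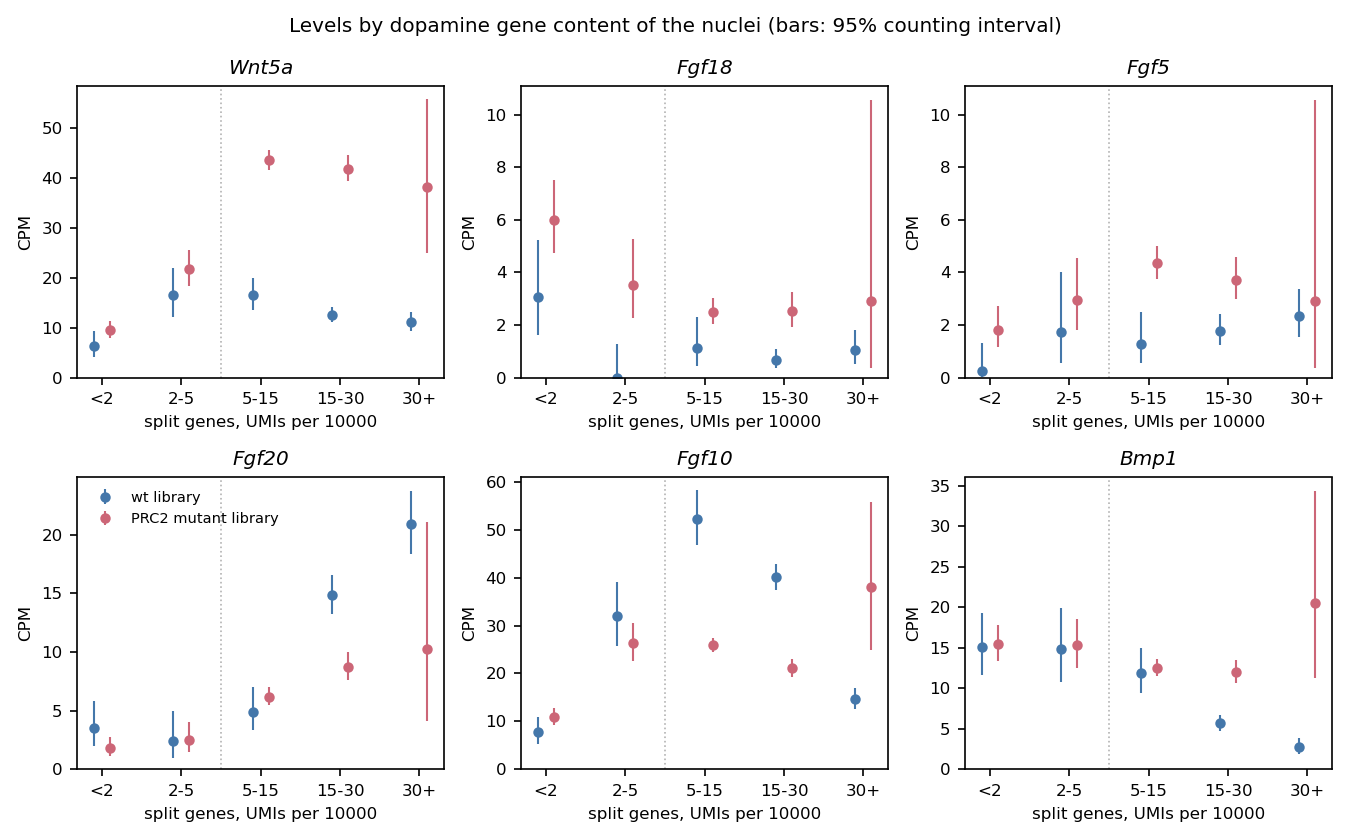
Levels of 6 genes in CPM by the number of Th, Slc6a3, Slc18a2 and Ddc UMIs per 10000, in wt (blue) and PRC2 mutant (red) nuclei; bars are 95% counting intervals and the dotted line is the threshold of 5. Wnt5a is higher in the mutant library in all 3 ranges above the threshold. Fgf20 climbs with dopamine gene content in both libraries, more steeply in wt. Bmp1 is level at 11.9 and 12.5 CPM in the range from 5 to 15.

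In other nuclei 39 of the 55 genes had at least 10 UMIs, of which 1 passed 2-fold as higher (Fgf18) and none as lower, against 1.09% and 1.24% of all 17308 genes. The median log2 ratio was -0.05, with -0.01 over all genes. The call of Fgf18 rests on the settings: it was lost with 5 CPM added, with a mean over nuclei, without the deepest nuclei, and at dopamine thresholds of 2 and 10 per 10000. Next to Fgf18 were Fgf5 (log2 ratio 0.80) and Wnt11 (0.79, 1 UMI in wt and 19 in mutant), and at the other end Wnt7a, at 3.35 CPM in wt and 1.28 CPM in mutant (-0.93). Fgf18, Fgf5, Wnt11 and Wnt7a thus had the same direction on both sides of the threshold. These nuclei were not alike in the libraries: summed oligodendrocyte markers were 554.8 CPM in wt and 272.4 CPM in mutant, astrocyte markers 124.4 and 46.4 CPM, endothelial and pericyte markers 22.5 and 42.3 CPM and glutamate neuron markers 91.5 and 121.1 CPM. Their part in the differences was not tested. In dopamine nuclei oligodendrocyte markers were closer (170.8 and 148.5 CPM), and those of GABA neurons were 34.0 CPM in wt and 178.8 CPM in mutant, with no gene of these lists at 0. Fewer cells of a type and less RNA per cell cannot be told apart in such sums.

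**Figure D3:**
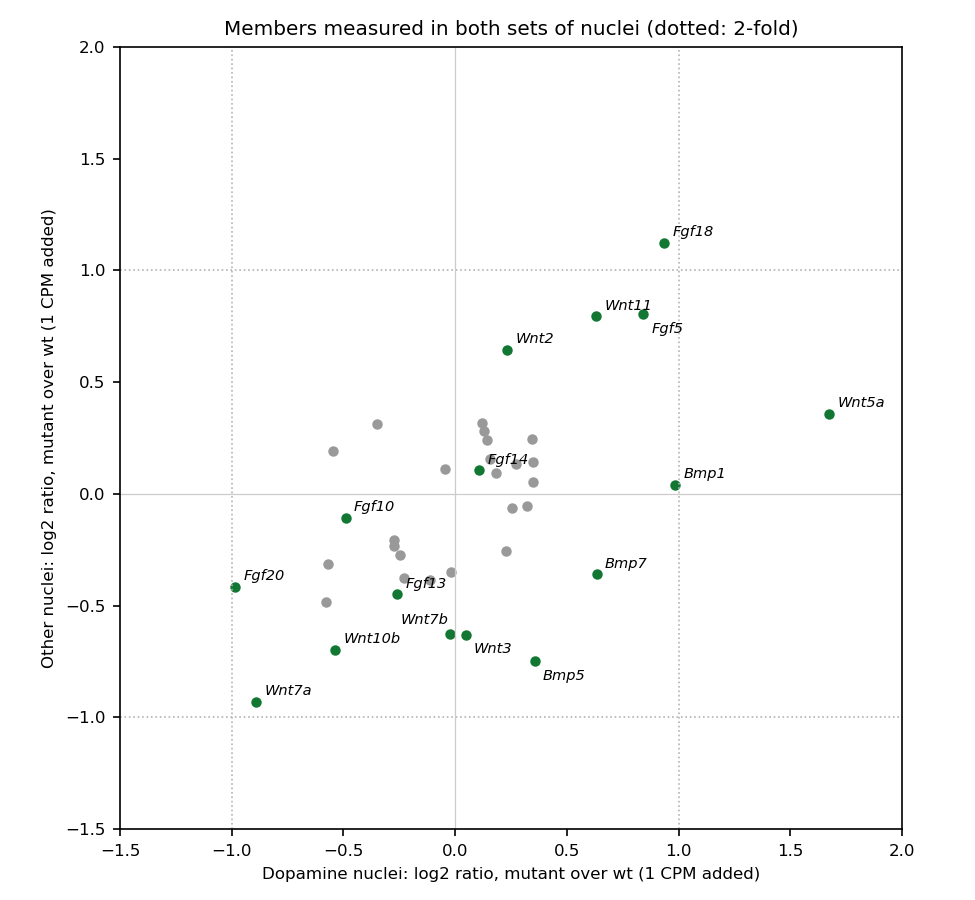
Log2 ratio of mutant to wt library, with 1 CPM added, in dopamine nuclei (horizontal) and in other nuclei (vertical) for the 39 genes measured in both; dotted lines mark 2-fold. Wnt5a lies at 1.67 in dopamine and 0.36 in other nuclei, Fgf18 and Fgf5 lie high on both axes, and Wnt7a lies low on both.

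A dopamine nucleus carried about as many ligand genes in each library. Thinned to 5000 UMIs, it had tags of 0.751 ± 0.836 (SD over 1260 nuclei) ligand genes in wt and 0.781 ± 0.849 (2785 nuclei) in mutant. At least 1 ligand tag was found in 54.2% (51.4 to 57.0) of wt and 56.05% (54.2 to 57.9) of mutant nuclei.

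Some of these genes lie beside each other, and their tags are given as counts, which are not levels per length. Wnt10b and Wnt1, 11.7 kb apart on chromosome 15, had 135 and 3 UMIs in wt and 141 and 2 in mutant dopamine nuclei. Wnt3 and Wnt9b, 24.3 kb apart on chromosome 11, had 32 and 0 UMIs in wt and 60 and 1 in mutant. Wnt9a and Wnt3a, 16.2 kb apart on the same chromosome, had 28 and 7 UMIs in wt and 78 and 21 in mutant.

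In dopamine nuclei the receptors of these ligands were largely level between the libraries. Over all genes 1.73% were higher and 0.717% lower there. The lists below are small and were chosen with earlier results known, so their counts are no result about a pathway. Of 13 measured Wnt receptor genes none passed 2-fold. Of those that bind Wnt5a, the well-tagged Ror1, Ror2, Ryk and Fzd3 were close. Ror1 stood at 40.2 CPM in wt and 38.4 CPM in mutant dopamine nuclei, and Ror2 at 15.7 and 16.8 CPM. Ryk stood at 64.6 and 71.2 CPM and Fzd3 at 54.3 and 62.0 CPM. Frizzled genes under 1 CPM in both libraries varied. Fzd2 had 4 UMIs in wt and 32 in mutant (4.58-fold, 1.63 to 17.8), Fzd5 1 and 11, and Fzd8 31 and 52 (0.961-fold). By log2 ratio with 1 CPM added Lrp5, the beta-catenin coreceptor, was furthest from 0, at 3.098 and 1.67 CPM (1.85-fold lower). Of 9 genes of Wnt secretion and agonists 1 was higher, Lgr5, a receptor of R-spondins, at 2.996 CPM in wt and 14.65 CPM in mutant. Lgr5 stood at 21.7 CPM in wt other nuclei. None of 10 Wnt inhibitors passed, and Sfrp1 was furthest from 0 among them by the same measure, with 2 UMIs in wt and 42 in mutant.

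Of 8 measured Wnt target genes 2 were higher in dopamine nuclei, against 1.73% of all genes. Lef1, a transcription factor that partners beta-catenin, stood at 3.45 CPM in wt and 33.1 CPM in mutant dopamine nuclei (9.60-fold, 8.07 to 11.5), and Ccnd1, a cyclin, at 1.32 and 5.455 CPM (4.13-fold, 3.09 to 5.63). Axin2, which is widely used as a readout of beta-catenin signalling, was at 9.34 and 8.29 CPM. In other nuclei Lef1 was also higher, at 12.7 CPM in wt and 33.25 CPM in mutant (2.615-fold, 2.10 to 3.29). Tcf7 was lower there, with 16 and 11 UMIs (2.24 and 0.565 CPM). The members of the list thus did not move as one.

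Among 12 BMP and GDF receptor genes 1 was lower and none higher in dopamine nuclei, against 0.717% and 1.73% of all genes. Bmpr1b, a type I receptor, stood at 90.1 CPM in wt and 35.9 CPM in mutant dopamine nuclei (2.51-fold lower, 2.38 to 2.64), and at 39.7 and 19.2 CPM in other nuclei. None of 14 BMP inhibitors passed, with Fstl1 the furthest at 7.11 and 12.8 CPM. Of 9 BMP targets Msx1, a homeobox gene of the dorsal neural tube, was tagged once in wt and 188 times in mutant nuclei. The targets Id1 to Id4 were within 2-fold. None of 8 FGF receptors and cofactors and none of 12 FGF targets passed, and by the same measure the targets furthest from 0 were Etv1, a transcription factor (26.6 and 14.3 CPM, log2 ratio -0.85), and Spred1, an inhibitor of the pathway (56.6 and 83.9 CPM, 0.56). None of 7 other ligands of the TGF-beta family passed. In other nuclei, where 1.24% of all genes were lower, Fgfr3 passed as lower. It stood there at 17.5 CPM in wt and 6.78 CPM in mutant (2.575-fold, 2 to 3.31). Lgr6 was lower there too, at 3.91 and 1.44 CPM.

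**Figure D4:**
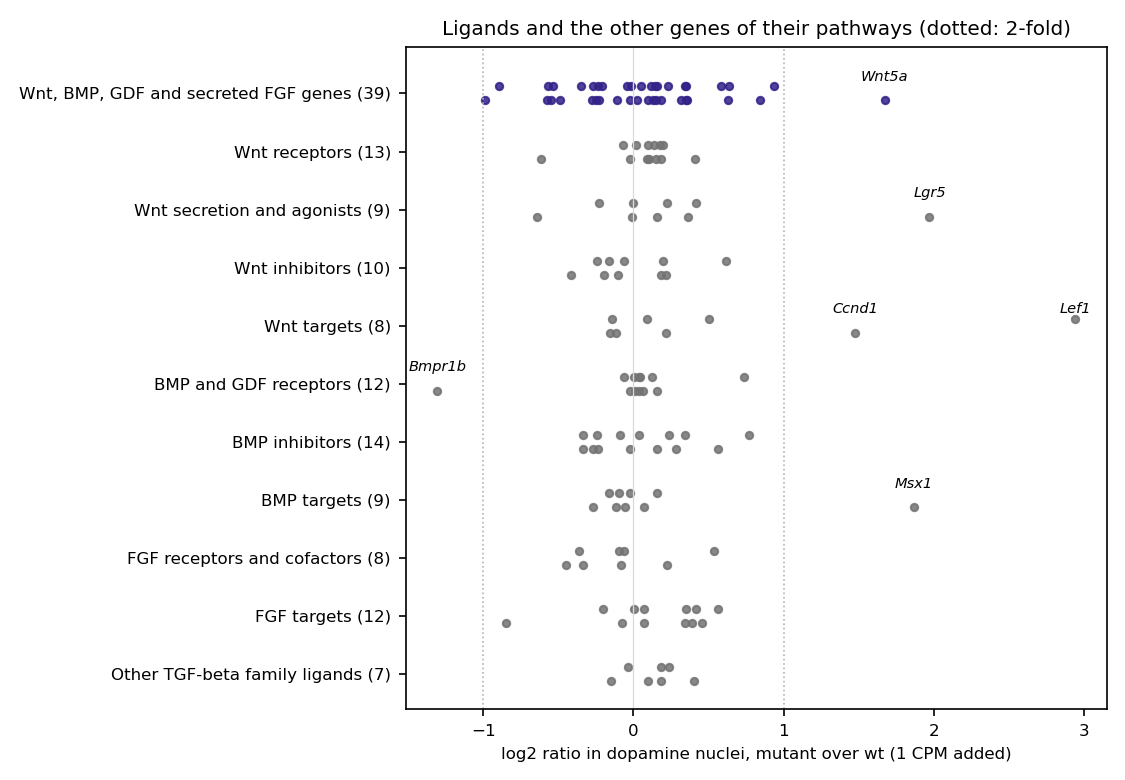
Log2 ratio of mutant to wt library in dopamine nuclei, with 1 CPM added, for the measured ligands (purple) and the other genes of their pathways by list (grey), each point 1 gene, with the number measured in brackets; dotted lines mark 2-fold. Lef1, Lgr5, Msx1, Wnt5a and Ccnd1 lie beyond 2-fold higher, Bmpr1b beyond 2-fold lower, and the other points lie between.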

How the data were processed

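Per the labels' protocols, nuclei were isolated from midbrain, sorted by FACS and made into 10x Single Cell 3' v3 libraries. Cell Ranger (version 3.1.0) and mm10 appear in the submitters' processing notes, which give no role for either. The values are unnormalised UMI counts in a single table that the authors deposited, holding 23481 genes by 5740 nuclei. Lanes are not kept apart in it. Column names begin with WT or KO, which gave each nucleus its genotype. Nuclear totals ran from 673 to 121160 UMIs in wt and from 621 to 127151 in the mutant library. No nuclei were removed and no doublet caller was run. As alternatives, the deepest 5% of nuclei of each library, or nuclei with at least 5 glial or vascular marker UMIs per 10000, were left out.

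Within each library the counts of a set of nuclei were added up and divided by the set's total to give CPM, with Python 3.11.15, numpy 2.4.6, scipy 1.17.1 and matplotlib 3.10.9. In dopamine nuclei 1 UMI is worth 0.0254 CPM in wt and 0.0145 CPM in mutant, and in other nuclei 0.14 and 0.0514 CPM. Levels carry exact Poisson intervals, ratios the exact binomial interval of the split of the counts (without the added 1 CPM), and shares Clopper-Pearson intervals. The share allowed where no nucleus had a tag is 3 counts over the number of nuclei. UMIs cover the 3' end only, so levels were compared mainly between libraries. Where genes are ranked or given as part of a sum, this is by tags, which are not levels per length. Bands of split, Hox, nigral or tegmental UMIs and the marker gates (20 per 10000 for oligodendrocyte and 10 for astrocyte markers) were chosen after the data were seen. Gene positions are those of GENCODE M21, in which each of the 55 symbols matched 1 gene.

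The comparison was tested on simulated data for dopamine nuclei, with 20074 genes that differed by counting error and known changes alone. Intervals covered the true ratio for 96.95% of changed genes, and 0 of 19619 unaltered genes passed 2-fold. Of genes raised 4-fold, 100% at 2 CPM or more and 38.9% below that were called. Of those lowered 4-fold, 100% and 0% were called. With 1 CPM added, a gene lowered 4-fold passes only from about 2 CPM. Of genes changed by exactly 2-fold at 2 CPM or more, 22.5% of raised and 28.6% of lowered ones were called, and none below that. The rule thus misses changes of scarce genes and most 2-fold changes.

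The genes named are those past 2-fold, those with at least 5 CPM in wt dopamine nuclei, and up to 4 per pathway list by size of ratio. Further genes were named after their values were seen: those past 1.5-fold, the sparse genes with large ratios, the Wnt5a receptors, Axin2 and the embryonic midbrain ligands. The gene set, lists and rules were chosen with earlier results of these data known.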

Additional observations from a re-analysis of the deposited data

Results flagged for a closer look

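In 2 genes the ratios in dopamine and other nuclei lay in opposite directions with counting intervals that left out 1 in both sets. Further genes had opposite signs with an interval that included 1. The difference between the sets was not tested. The share of all genes that meet this rule was not counted, so the count of 2 is no result about these genes as a list. Bmp2k had a log2 ratio (mutant over wt, 1 CPM added) of 0.2286 in dopamine nuclei and -0.2561 in other nuclei. Bmp5 had 0.3555 in dopamine nuclei and -0.7491 in other nuclei, the last on 16 wt and 18 mutant UMIs.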

How the results depend on the processing

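Wnt5a passed as higher in dopamine nuclei under each of the 12 alternatives to the rule, among them the removal of the deepest nuclei, which was added after the data were seen. The counts of genes called rest on genes near the threshold. The count of 1 higher gene in dopamine nuclei became 3 with 0.5 CPM added in place of 1, 2 with a dopamine threshold of 2 per 10000 and 3 with one of 10, 2 with the split by Ddc alone, 2 with a mean over nuclei, 2 without glial or vascular marker nuclei, and 6 at 1.5-fold. The added genes at 2-fold were Bmp1 and Fgf18. The count of 0 lower genes became 2 with 0.5 CPM added, 1 with a threshold of 10, 1 with the split by Ddc, 1 with the median log2 ratio set to 0, 1 without glial or vascular marker nuclei and 2 at 1.5-fold, and these were Fgf20 and Wnt7a. In other nuclei the count of 1 higher gene became 3 with 0.5 CPM added, 0 with 5 CPM, 0 with a mean over nuclei, 4 at 1.5-fold and 0 without the deepest nuclei. It was still 1 with a dopamine threshold of 2 or of 10, but the gene was then Fgf5 or Wnt5a, respectively, in place of Fgf18. The count of 0 lower genes there became 1 with 0.5 CPM added, 1 with a threshold of 2, 4 with a mean over nuclei, 1 without glial or vascular marker nuclei and 5 at 1.5-fold. Over all genes, dopamine nuclei had 348 higher and 144 lower with 1 CPM added, 451 and 233 with 0.5 CPM, and 156 and 49 with 5 CPM. With a mean over nuclei the summed Wnt ratio was 1.54 and the summed BMP ratio 0.842. The share of wt dopamine nuclei with a Wnt5a tag was 25.2% without thinning and 6.83% at 5000 UMIs, and that of mutant ones 46.0% and 18.2%. Of 126 values of 18 named genes, 12 lay outside the counting interval and 0 had the other sign. No paired analysis was possible because each genotype is 1 library and lanes are not kept apart. The added 1 CPM limits calls of genes under 2 CPM, and no replicate error could be measured.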
